A study of Mus musculus with 12 samples.

Results

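The 10 genes of this account belong to the major histocompatibility complex (MHC) and the antigen presentation pathway, and were followed through the cortex of wild-type and *Gde2* knockout mice. They are 5 class I genes (*H2-K1*, *H2-D1*, *H2-Q4*, *H2-T23* and the shared light chain *B2m*), both subunits of the peptide transporter (*Tap1* and *Tap2*) and 3 class II genes (*H2-Aa*, *H2-Ab1* and the invariant chain *Cd74*). They were chosen by gene symbol, 10 of the 36047 genes in the table, and all 10 passed the filter on low values in every comparison. On GRCm38, 8 of them lie on chromosome 17, from *H2-K1* (chr17:33996017-34000347) to *H2-T23* (chr17:36029773-36032855), whereas *B2m* lies on chromosome 2 and *Cd74* on chromosome 18. RNA-seq was made from dissected cortex of 12 mice, 3 in each of 4 groups, formed by genotype (WT or *Gde2*KO) and by age (4 or 19 months). *Gde2*KO animals carry a constitutive *Gde2*-/- deletion that is not restricted to a cell type, and no other allele or agent is named for any group. Each library is taken as a separate animal. The study's methods mention animals of both sexes but do not give the sex of each library. The 19-month libraries carry no replicate number in the table and are called A, B and C here. GDE2, encoded by *Gdpd5*, is a membrane enzyme that cleaves the lipid anchors of surface proteins.

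Class I molecules are found on most nucleated cells and present peptides from inside the cell to CD8 T cells. A polymorphic heavy chain, such as H2-K or H2-D, pairs with the light chain beta-2 microglobulin and with a short peptide that the TAP transporter has carried from the cytosol into the endoplasmic reticulum. H2-T23, or Qa-1, is a nonclassical class I chain recognized by inhibitory receptors of natural killer cells, and H2-Q4 is another nonclassical class I chain. Class II molecules are paired alpha and beta chains that present peptides taken up from outside the cell to CD4 T cells, and the invariant chain CD74 guides them through the cell. In brain tissue, class I is known from microglia, endothelium and some neurons, and class II mainly from border macrophages, dendritic cells and activated microglia. Both sets respond to interferons, through NLRC5 for class I and CIITA for class II.

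Several libraries stood apart before any comparison. The 6 libraries at 4 months held 46434259 to 59728495 estimated reads, against 3707928 to 44604732 at 19 months, where *Gde2*KO library A was the shallowest and WT library A (6734475 reads) the next. *Ddx3y*, a Y-linked gene, lay at 1407 to 1776 normalized counts in 5 of 12 libraries, namely all 3 19-month WT libraries and 19-month *Gde2*KO libraries B and C, and at 0 to 46.5 in the rest, so that age and Y-linked expression almost coincide. Summed striatal markers were 5484 and 3478 normalized counts in 4-month WT replicates 1 and 2 but 53447 in replicate 3 and 30726 to 73326 in 4-month *Gde2*KO libraries, and hippocampal markers were the other way round (23722 and 22571 against 5334 and 5379.7 to 7996). The general neuronal marker *Snap25*, which is not specific to cortex, was present throughout, at 55757 to 110535 normalized counts. *Gdpd5* was lower in every *Gde2*KO library than in every WT library of its age, by -0.85 (log2, adjusted p = 0.463) at 4 months and -1.11 (adjusted p = 0.0111) at 19 months.

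To show what regulatory sequence the class I and class II genes have in common, promoter windows of 300 bases (250 before the transcription start and 50 after it) were read from RefSeq on GRCm38.p6, which held 7 of the 10 genes. Printed here are both classical class I genes, the light chain, the nonclassical member with the larger genotype difference at 4 months, and a class II gene. Capitals mark the letters AANNGAAA, the core that interferon regulatory factors bind, and GGGGATTCC, a kappa B site, each on either strand. No capital stretches of these motifs overlap.
H2-K1 (chr17:34000298-34000597, minus strand): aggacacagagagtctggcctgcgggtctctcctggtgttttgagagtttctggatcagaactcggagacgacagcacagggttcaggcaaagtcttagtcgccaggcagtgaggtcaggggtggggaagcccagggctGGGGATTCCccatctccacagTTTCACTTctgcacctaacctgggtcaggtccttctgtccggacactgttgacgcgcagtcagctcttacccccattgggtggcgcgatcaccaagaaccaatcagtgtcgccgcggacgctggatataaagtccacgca
H2-D1 (chr17:35262844-35263143, plus strand): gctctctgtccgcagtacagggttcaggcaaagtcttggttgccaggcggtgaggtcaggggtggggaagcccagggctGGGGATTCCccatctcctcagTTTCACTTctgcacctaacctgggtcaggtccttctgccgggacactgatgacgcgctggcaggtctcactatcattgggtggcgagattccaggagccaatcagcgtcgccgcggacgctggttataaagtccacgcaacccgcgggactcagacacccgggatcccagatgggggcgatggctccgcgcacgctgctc
B2m (chr2:122147437-122147736, plus strand): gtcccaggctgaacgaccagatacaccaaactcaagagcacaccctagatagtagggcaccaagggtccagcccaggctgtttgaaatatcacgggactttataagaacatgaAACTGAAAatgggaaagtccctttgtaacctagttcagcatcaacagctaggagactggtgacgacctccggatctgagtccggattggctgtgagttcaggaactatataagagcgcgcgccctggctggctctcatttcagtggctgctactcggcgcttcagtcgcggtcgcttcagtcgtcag
H2-T23 (chr17:36032652-36032951, minus strand): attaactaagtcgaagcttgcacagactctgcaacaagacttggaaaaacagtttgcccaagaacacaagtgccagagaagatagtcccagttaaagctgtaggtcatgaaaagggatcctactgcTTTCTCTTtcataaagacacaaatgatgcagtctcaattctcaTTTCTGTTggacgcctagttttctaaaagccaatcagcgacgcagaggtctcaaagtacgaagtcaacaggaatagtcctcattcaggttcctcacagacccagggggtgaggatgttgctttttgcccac
H2-Aa (chr17:34287774-34288073, minus strand): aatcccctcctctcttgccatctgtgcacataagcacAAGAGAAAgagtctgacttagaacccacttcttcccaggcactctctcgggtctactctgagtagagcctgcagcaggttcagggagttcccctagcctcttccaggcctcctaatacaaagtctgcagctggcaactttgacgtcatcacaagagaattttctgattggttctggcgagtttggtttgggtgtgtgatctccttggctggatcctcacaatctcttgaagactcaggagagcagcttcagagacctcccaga

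The interferon core AANNGAAA was found in 6 of these 7 members (*H2-K1*, *H2-D1*, *B2m*, *H2-Q4*, *H2-T23* and *H2-Aa*, not *Tap1*), and in 23.9% of all 32851 promoter windows. GGGGATTCC was found in *H2-K1* and *H2-D1*, in the same order and spacing to the interferon core, and in 0.250% of all windows. The Y box letters ATTGG were found in all 7 (37.4% of all windows), and TGACG, shared by the X2 box of class I and class II promoters, in 6 of 7, not in *H2-T23* (20.8% of all windows). In *H2-Aa* the matches to TGACG on the opposite strands overlap each other. A match is only a match of letters, not evidence of binding.

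The class I heavy chains are close copies of each other, which bears on how firmly reads can be assigned. Of the distinct stretches of 31 bases in its transcripts, *H2-Q4* shared 53.0% with another gene, the largest part with *H2-Q6* (19.5%), and *H2-D1*, *H2-T23* and *H2-K1* shared 26.9%, 25.8% and 22.8%. Between them, *H2-K1* and *H2-D1* had 358 stretches in common. *Tap2* shared 14.3%, the largest part (11.3%) with a transcript without a gene name, and *Tap1* shared 4.09%. *B2m* shared none, and the class II genes shared 0.267% (*H2-Ab1*), 0.911% (*H2-Aa*) and 1.41% (*Cd74*). Values of the class I heavy chains, *H2-Q4* above all, and to a lesser degree of *Tap2*, are therefore less certain for each gene alone than those of *B2m* and of class II.

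Levels between genes were compared as TPM, in which the reads of a transcript are divided by its length. In 4-month WT cortex *B2m* was the most abundant, at 147 ± 27.3 TPM (SD, n = 3), and was followed by *H2-K1* (44.4 ± 9.28) and *H2-D1* (33.6 ± 7.63), whose ranges of mean ± SD overlapped. *H2-T23* was at 14.3 ± 7.96 TPM and *H2-Q4* at 7.57 ± 1.40 TPM. At the low end stood the class II genes, with *Cd74* at 3.64 ± 2.44, *H2-Ab1* at 2.07 ± 0.668 and *H2-Aa* at 1.57 ± 1.14 TPM, and the ranges of each pair of neighbours from *H2-T23* down to *H2-Aa* overlapped. In 19-month WT cortex *B2m* was at 225 ± 19.2 TPM and *H2-D1* (70.8 ± 6.57) and *H2-K1* (70.4 ± 2.99) again overlapped. *Cd74* had moved up in this order, past *Tap2* and *H2-Q4*, at 15.01 ± 1.61 TPM, level with *H2-Q4* (13.6 ± 0.456), whereas *Tap1* was the lowest of the 10 at 3.63 ± 0.5001 TPM. In the *Gde2*KO groups the top was the same, *B2m* at 183 ± 64.1 TPM at 4 months and 174 ± 37.1 TPM at 19 months, and its mean ± SD range lay apart from that of the next gene in all 4 groups.

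The clearest differences among these genes lay between ages. The 4-month and 19-month libraries are separate sets of unlike depth, so that age, library set and depth cannot be told apart. Words such as rose and fell name only the direction from 4 to 19 months. All 10 genes were higher at 19 than at 4 months, and 4 rose by the rule for a call, a Benjamini-Hochberg adjusted p under 0.1 together with a log2 difference of more than 0.72: the class II genes *Cd74*, *H2-Aa* and *H2-Ab1*, and the transporter subunit *Tap2*. Of all 18731 genes tested, 14% were called in either direction and 4.52% as higher. Another 5 members passed the adjusted p but not the fold minimum, so that 9 of 10 were higher with an adjusted p under 0.1, against 15.3% of all genes. In 5 of 10 members every 19-month library lay above every 4-month library, against 5.52% of all genes. The median log2 difference of the members was 0.69, beside -0.15 for all genes tested. In bulk cortex, fewer cells of a type and less RNA in each cell cannot be told apart.

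**Figure D1:**
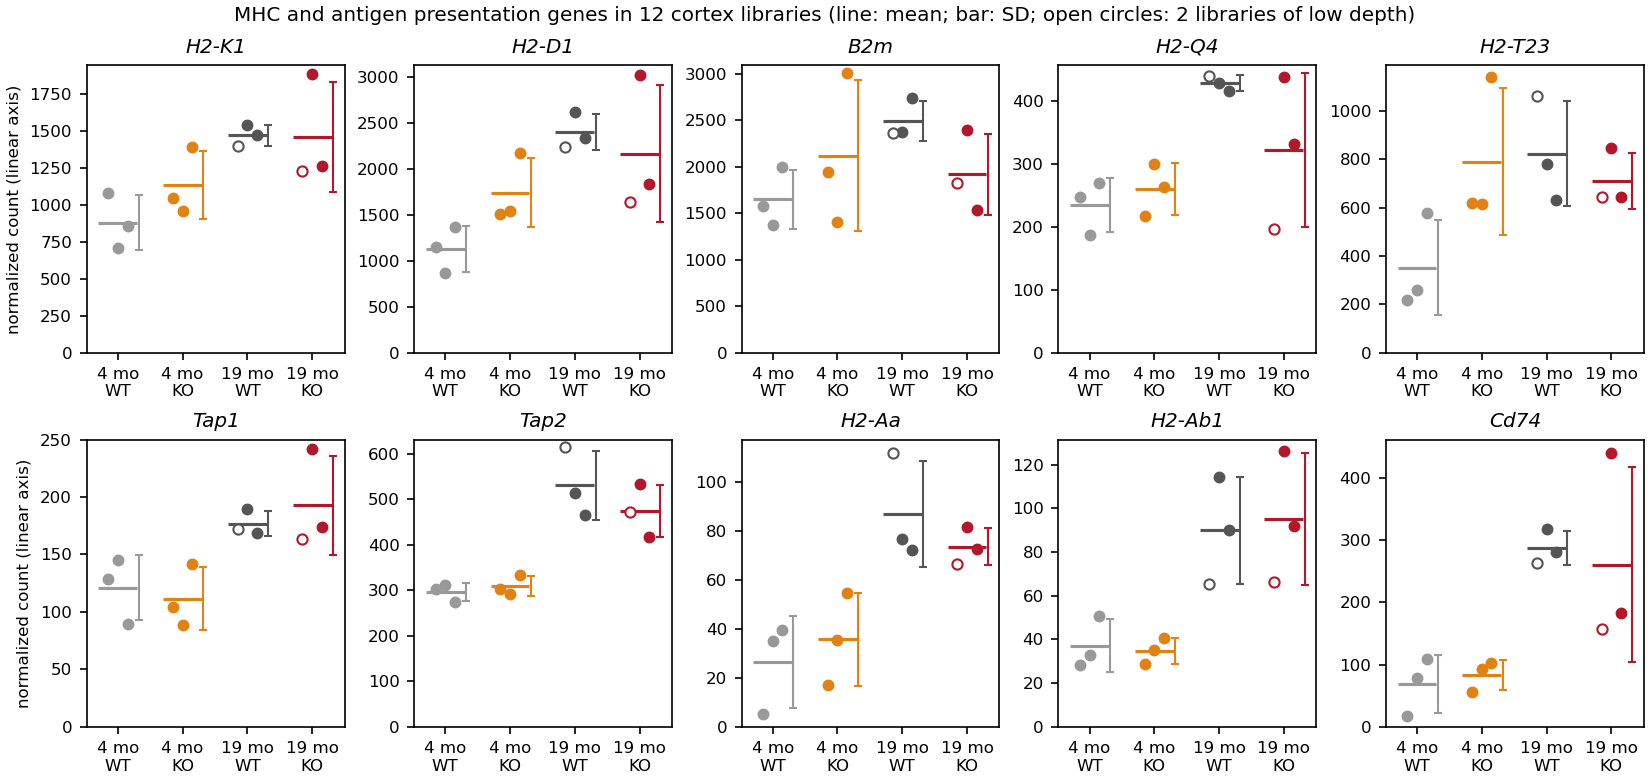
Normalized count (linear axes from 0) of each of the 10 genes in the 12 cortex libraries, 3 a group, with a line at the mean and a bar for the SD. Open circles are the 2 libraries of low depth. In the panels of *Tap1*, *Tap2*, *H2-Aa*, *H2-Ab1* and *Cd74* all 19-month points lie above all 4-month points.

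Among the class II genes, *Cd74* had normalized counts of 17.3, 79.0 and 108 in 4-month WT, 55.8, 93.0 and 102 in 4-month *Gde2*KO, 263, 317 and 280.4 in 19-month WT and 158, 441 and 183 in 19-month *Gde2*KO libraries. Every 19-month library was above the highest 4-month library, and *Gde2*KO library B stood far above A and C. The log2 difference was 1.97 (95% confidence interval 1.09 to 2.85, adjusted p = 0.00373). *H2-Aa*, the alpha chain, had 5.05, 35.1 and 39.4 in 4-month WT, 17.0, 35.3 and 54.5 in 4-month *Gde2*KO, 112, 76.5 and 72.1 in 19-month WT and 66.3, 81.7 and 72.5 in 19-month *Gde2*KO libraries. Its lowest value by far was 4-month WT replicate 1, and the ages did not overlap. The log2 difference was 1.64 (interval 0.65 to 2.63, adjusted p = 0.0154).

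*H2-Ab1*, the beta chain, had 28.1, 32.7 and 50.8 in 4-month WT, 28.8, 35.1 and 40.7 in 4-month *Gde2*KO, 65.2, 114 and 90.1 in 19-month WT and 66.3, 126 and 92.0 in 19-month *Gde2*KO libraries. The ages again did not overlap, and the shallow library A was the lowest 19-month value in both genotypes. Its log2 difference was 1.33 (interval 0.84 to 1.83, adjusted p = 0.00144). The class II counts of *Gde2*KO library A rested on few reads. They were 8 reads for *H2-Aa*, with an exact Poisson 95% interval of 3.45 to 15.8 reads, or 28.6 to 131 normalized counts, 8 reads for *H2-Ab1* and 19 reads for *Cd74*. The intervals cover counting error only, and those of all 3 genes reach into the 4-month range, that of *Cd74* spanning 94.9 to 246 normalized counts.

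Of the transporter subunits, *Tap2* had normalized counts of 302, 313 and 275 in 4-month WT, 304, 292 and 333 in 4-month *Gde2*KO, 615, 514 and 465 in 19-month WT and 473, 533 and 418 in 19-month *Gde2*KO libraries. The 6 libraries of 4 months lay within 275 to 333, and each 19-month library was above them. The log2 difference was 0.72 (interval 0.51 to 0.93, adjusted p = 4.0e-04), just at the fold minimum, so that 9 of 20 other settings took it under that minimum and out of the call. *Tap1*, the other subunit, had 129, 145 and 89.4 in 4-month WT, 104, 89.0 and 142 in 4-month *Gde2*KO, 172, 189 and 169 in 19-month WT and 163, 242 and 174 in 19-month *Gde2*KO libraries and did not overlap between ages either. Its difference of 0.68 (adjusted p = 0.00862) was under the fold minimum.

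The class I genes differed less. *H2-D1* had 1155, 870.3 and 1363 in the 4-month WT libraries, 1511, 1542 and 2179.9 in the 4-month *Gde2*KO libraries, 2246, 2622 and 2342 in the 19-month WT libraries and 1641, 3025 and 1838 in the 19-month *Gde2*KO libraries. Of the younger libraries only *Gde2*KO replicate 3 reached into the 19-month range, and the log2 difference was 0.70 (interval 0.34 to 1.05, adjusted p = 0.00672). *H2-K1* had 1079.6, 703 and 855 in the 4-month WT libraries, 1042, 958 and 1392 in the 4-month *Gde2*KO libraries, 1396, 1536 and 1474 in the 19-month WT libraries and 1225, 1883 and 1261 in the 19-month *Gde2*KO libraries. Only 4-month *Gde2*KO replicate 3 overlapped the older libraries, and the log2 difference was 0.56 (adjusted p = 0.00938).

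*H2-Q4* had 248, 186 and 269 in 4-month WT, 218, 300.1 and 264 in 4-month *Gde2*KO, 440.3, 429 and 416 in 19-month WT and 196, 439 and 332 in 19-month *Gde2*KO libraries. The 19-month WT libraries were closely grouped above all of 4 months, while *Gde2*KO library A, with about 24 reads, lay among the young libraries. The log2 difference was 0.56 (adjusted p = 0.0275). *H2-T23* had 217, 260.5 and 578 in 4-month WT, 618, 613 and 1140.2 in 4-month *Gde2*KO, 1060.2, 779 and 630.4 in 19-month WT and 644, 846 and 642 in 19-month *Gde2*KO libraries, with 4-month WT replicates 1 and 2 lowest and 4-month *Gde2*KO replicate 3 highest. The log2 difference was 0.61 (adjusted p = 0.0661).

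*B2m*, which all class I heavy chains need, had 1575, 1375 and 1997 in the 4-month WT libraries, 1945, 1402 and 3004 in the 4-month *Gde2*KO libraries, 2357, 2376 and 2740.3 in the 19-month WT libraries and 1825, 2392 and 1537 in the 19-month *Gde2*KO libraries. The ages overlapped widely, with the highest value of all in 4-month *Gde2*KO replicate 3, and the log2 difference was 0.26 (interval -0.12 to 0.63, adjusted p = 0.255).

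**Figure D2:**
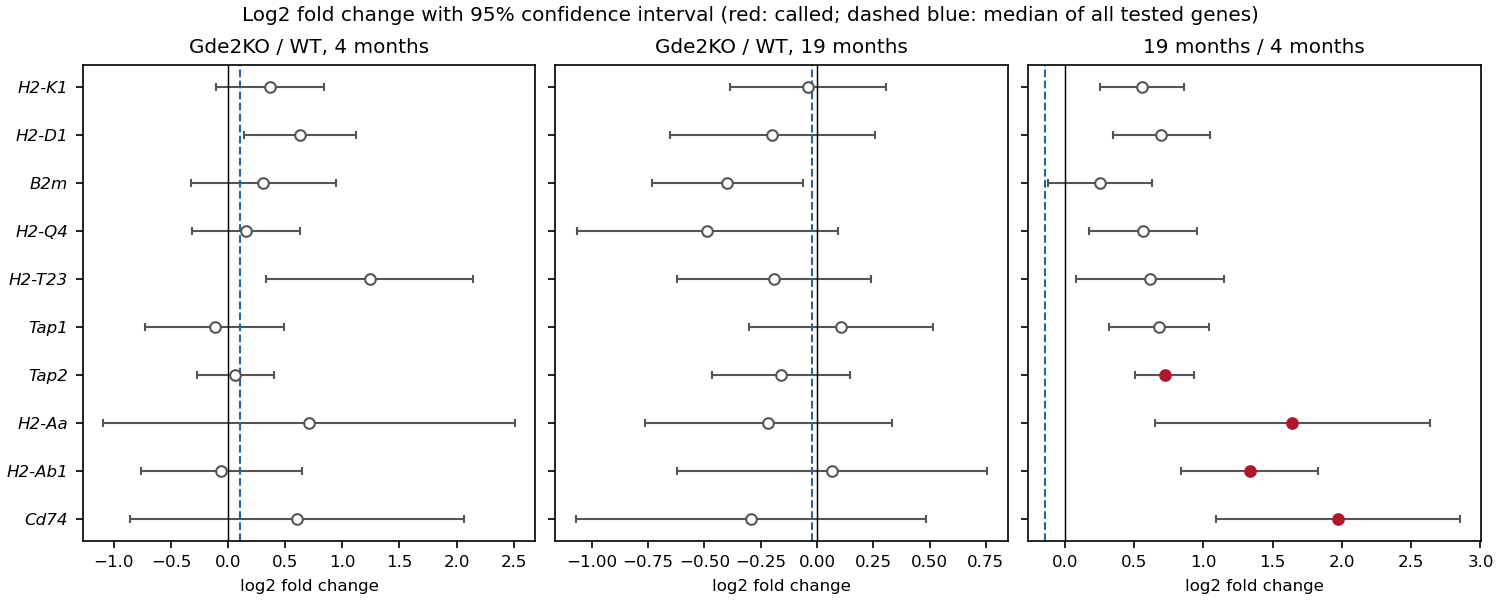
Log2 fold change of the 10 genes with its 95% confidence interval between genotypes at 4 and at 19 months and between ages. Red points were called, and the dashed line is the median of all genes tested. Red points are found only in the panel of ages, for *Tap2*, *H2-Aa*, *H2-Ab1* and *Cd74*.

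Within each genotype, fitted over the 12 libraries, *Cd74* was higher at 19 months by 2.42 (log2) in WT and by 1.52 in *Gde2*KO, *H2-Ab1* by 1.27 and 1.40, and *Tap2* by 0.83 and 0.61. *H2-Aa* was higher by 2.10 in WT (adjusted p = 0.0411) and by 1.18 in *Gde2*KO (adjusted p = 0.198). The class I heavy chains gave larger values in WT than in *Gde2*KO. These were 1.11 and 0.28 for *H2-D1*, 1.33 and -0.10 for *H2-T23*, and 0.76 and 0.36 for *H2-K1*. The test of these differences is given with the interaction.

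Other genes of the pathway were read beside the members. Over all genes tested, 14% were called with age in either direction and 4.52% as higher, and these shares stand beside the counts that follow. Of 25 other class I genes tested, 3 rose and 1 fell with age. The nonclassical chain *H2-Q7* rose by 1.02 (log2, adjusted p = 0.00279), the immunoproteasome subunit *Psmb9* by 0.9985 (adjusted p = 0.00353) and *Nlrc5*, the transactivator of class I genes, by 0.86 (adjusted p = 0.0709), whereas *Cd1d1*, which presents lipids, fell by 1.02 (adjusted p = 0.0494). *H2-Q7* is one of the genes that share sequence with *H2-K1* and *H2-D1*, and *Psmb9* overlaps *Tap1* in 182 stretches of 31 bases. Of 12 other class II genes tested, 1 rose, the beta chain *H2-Eb1*, by 1.04 (adjusted p = 0.00608), with normalized counts of 30.996, 64.7 and 73.5 in 4-month WT, 42.6, 52.2 and 80.8 in 4-month *Gde2*KO, 163, 127 and 114 in 19-month WT and 82.9, 96.2 and 109 in 19-month *Gde2*KO libraries. *Ciita*, the transactivator of class II genes, was not called, with a difference of 0.25 (adjusted p = 0.255). Of 25 interferon-stimulated genes, 4 rose and none fell: *Oas1a* (1.07, adjusted p = 0.0167), *Irf7* (0.78, adjusted p = 0.0895), *Bst2* (0.78, adjusted p = 0.00856) and *Xaf1* (0.77, adjusted p = 0.0827). *Xaf1* overlapped between ages in *Gde2*KO libraries, at 373, 619 and 757 normalized counts at 4 months and 440, 460 and 646 at 19 months. In WT it was at 110.4, 96.4 and 151 at 4 months and 731, 470 and 152 at 19 months. The medians were 0.20 for the other class I genes, 0.02 for the other class II genes and 0.27 for the interferon-stimulated genes.

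Markers of cells that carry MHC were read beside the members. None of the 12 microglial markers was called with age, 2 had an unadjusted p under 0.05, and their median difference was -0.06. Their summed level was 9353 to 12129 in 4-month WT, 11634 to 18756 in 4-month *Gde2*KO, 11121 to 12215 in 19-month WT and 9840.3 to 14491 in 19-month *Gde2*KO libraries. Of 10 genes known from disease-associated microglia, 5 rose: *Gpnmb* (3.62), *Lgals3* (3.30), *Clec7a* (2.93), *Itgax* (2.61) and *Spp1* (1.87). *Clec7a* was at 163, 145 and 190.3 normalized counts in 19-month WT and at 8.29, 214 and 15.6 in 19-month *Gde2*KO libraries, so that libraries A and C of *Gde2*KO stayed near the 4-month range of 6.58 to 14.9, and these were also the *Gde2*KO libraries with less *Cd74*. The median of that list was 1.51, with *Cd9* at -0.69 and *Lpl* at -0.59, neither of them called for lack of fold.

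Of 8 markers of border macrophages, 2 rose, *Cbr2* by 2.46 and the mannose receptor *Mrc1* by 1.32, while *Cd163* was at -0.49, *Lyve1* at -0.26 and *Ms4a7* at -0.13. In all 5 of 8 were higher, with a median of 0.46. The list summed to 593 to 1103 in 4-month WT, 854 to 928 in 4-month *Gde2*KO, 1209 to 1479 in 19-month WT and 947 to 1253 in 19-month *Gde2*KO libraries. Of 7 dendritic cell markers tested, *Flt3* rose by 0.98, while *Zbtb46* differed by 0.40 (adjusted p = 0.0209), under the fold minimum. *Xcr1* (-0.39) and *Clec9a* (-0.25, at 2.88 to 24.9 normalized counts) were lower, and the median of the 7 was 0.26. That list summed to 544 to 732 in 4-month WT, 685 to 799.9 in 4-month *Gde2*KO, 1034 to 1160.2 in 19-month WT and 995 to 1078 in 19-month *Gde2*KO libraries. Of 4 B cell genes tested, *Jchain* alone was called, with a rise of 3.62. *Ms4a1* was at -0.41 and *Cd79a* at -0.36, so that 2 of 4 were higher, with a median of 0.17. None of the 6 tested T and natural killer cell markers was called, 1 having an unadjusted p under 0.05, with *Cd3e* at 16.6 to 52.0 normalized counts. Of 5 blood genes, a sign of blood in the tissue, all 5 were higher at 19 months and 3 were called, with a median of 0.91. Hemoglobin *Hba-a1* was at 596 to 1702 at 4 months and 1356 to 6879 at 19 months. Of 9 endothelial markers 2 rose, *Ly6a* by 1.16 and *Ly6c1* by 0.78, and 6 were higher, with a median of 0.20. *Cldn5* was at -0.40, *Kdr* at -0.23 and *Tek* at -0.11. Of 8 choroid plexus markers *Aqp1* (3.18) and *Otx2* (1.51) rose and *Kl* (-0.77) fell, with 5 of 8 higher and a median of 0.20. Regional markers moved too, with 5 of 8 striatal markers lower at 19 months by the rule for a call (median -1.51) and 5 of 9 hippocampal ones (median -0.88). Whether any of these markers accounts for a member's difference was not tested.

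**Figure D3:**
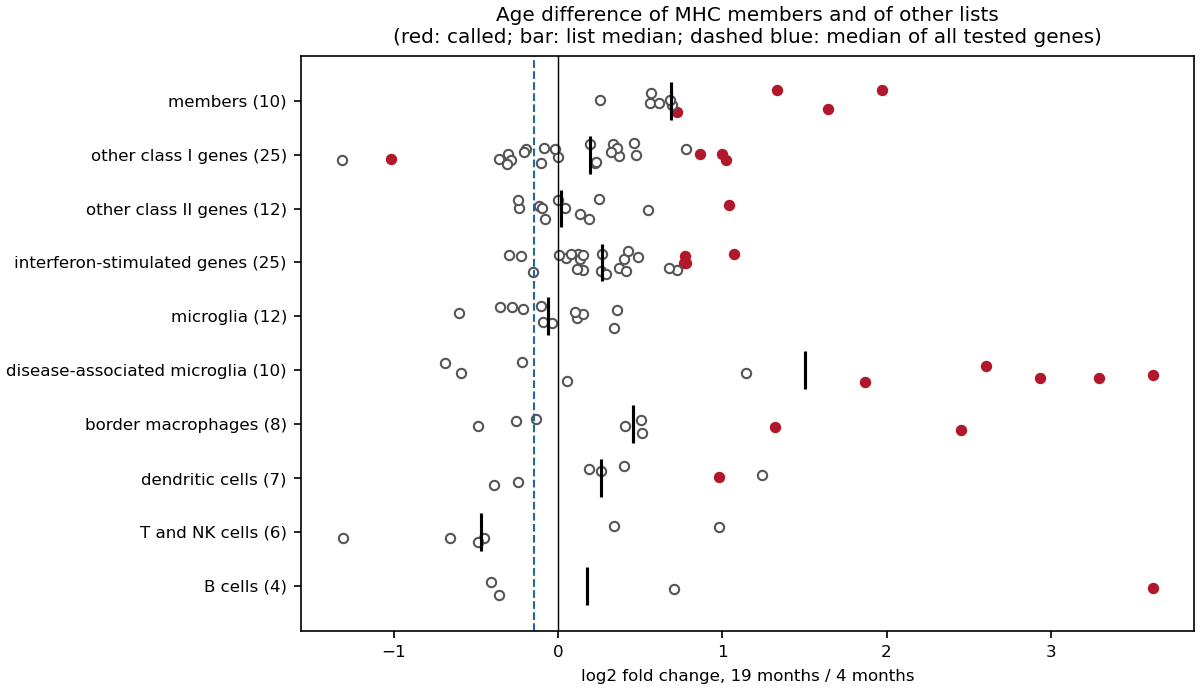
Log2 fold change between 19 and 4 months of each tested gene, in rows for the 10 members, the pathway lists and the markers of immune cells, with the number tested in brackets. Red points were called, bars are list medians and the dashed line is the median of all genes. The member median (0.69) lies to the right of those of the other class I and class II genes, and the microglial list holds no red point.

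Age and the Y-linked signal almost coincide, since *Gde2*KO library A was the single 19-month library without it. With *Ddx3y* as a term, 1 of 4 calls was kept, *Tap2* (0.72, adjusted p = 0.0475). *Cd74* was then at 1.26, *H2-Aa* at 1.47 and *H2-Ab1* at 0.75 (log2), with adjusted p of 0.374, 0.374 and 0.298, and *H2-Q4* turned to -0.24. Library A itself lay above all 6 4-month libraries in *Tap1*, *Tap2*, *H2-Aa*, *H2-Ab1* and *Cd74* (158 against at most 108), but in this shallow library the counting intervals of *Tap1*, *H2-Aa*, *H2-Ab1* and *Cd74* reach into the 4-month ranges, and that of *Tap2* (358 to 612, against at most 333) does not. Without both shallow libraries 5 members were called, with *H2-D1* and *Tap1* passing the fold minimum and *Tap2* (0.67) falling under it.

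Between genotypes at 4 months no member was called by limma, against 0.126% of the 19035 genes tested. The 2 largest differences among the class I members pointed to more RNA in *Gde2*KO cortex. *H2-T23* was higher by 1.24 (log2, interval 0.33 to 2.15) and *H2-D1* by 0.63 (interval 0.14 to 1.12), each with an adjusted p of 0.463. These were the 2 members with an unadjusted p under 0.05, as 10.6% of all genes had, and the 2 in which every *Gde2*KO library lay above every WT library, as in 11.1% of all genes. For *H2-T23* the WT libraries had 217, 260.5 and 578 and the *Gde2*KO libraries 618, 613 and 1140.2 normalized counts, so that WT replicate 3 lay just below *Gde2*KO replicates 1 and 2. For *H2-D1* the values were 1155, 870.3 and 1363 against 1511, 1542 and 2179.9, with *Gde2*KO replicate 3 well above the rest. In all, 8 of 10 members were higher in *Gde2*KO, with a median of 0.34, beside 0.11 for all genes. Median-of-ratios scaling set that shift of all genes to 0, and *Gde2*KO replicate 3 had the largest normalized total.

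The WT libraries with the lowest values also stood apart in regional markers. WT replicates 1 and 2, which had few striatal and many hippocampal transcripts, had the lowest *H2-T23* and *H2-D1* levels, and WT replicate 3 was nearer to the *Gde2*KO libraries in both. Within *Gde2*KO the order was different. Replicate 3 had the lowest striatal sum (30726) and the most *H2-T23* (1140.2) and *H2-D1* (2179.9), whereas replicate 2 had the highest sum (73326) with 613 and 1542. Without WT replicates 1 and 2 the differences were 0.39 for *H2-T23* and 0.33 for *H2-D1*, an omission chosen after seeing the data that leaves a single WT library. Without WT replicate 3 they were 1.67 and 0.78 and both were called (adjusted p = 0.0121 and 0.0755), beside 1510 of all genes. With library weights *H2-T23* was called as well, beside 2154 of all genes. The same 2 WT libraries were low in *Trbc2* (14.3, 15.1 and 233 in WT, 289, 262 and 722 in *Gde2*KO) and *Cd4* (28.1, 30.3 and 512 in WT, 347, 682 and 201 in *Gde2*KO). Both are on the list of T and natural killer cell markers and were picked out after their values were seen. Within *Gde2*KO, *Cd4* was highest in replicate 2 and lowest in replicate 3, as the striatal sum was. Among the other T and natural killer cell markers tested, *Cd3d* was at -0.56, *Cd3g* at -0.25, *Cd8a* at -0.25 and *Cd3e* at 0.12 (log2), and none of the 6 was called (median -0.07). All 12 microglial markers were higher in *Gde2*KO, none of them called, with a median of 0.46, beside 0.11 for all genes. Their sum was largest in replicate 3 (18756, against 12760 and 11634 in replicates 1 and 2), the library with the largest normalized total. Other lists leaned the same way, with 6 of 6 oligodendrocyte, 8 of 9 endothelial and 7 of 8 neuronal markers higher, but 3 of 7 astrocyte markers. The share of all genes that were higher was not counted. The part of region and of microglial content in the class I values was not tested.

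**Figure D4:**
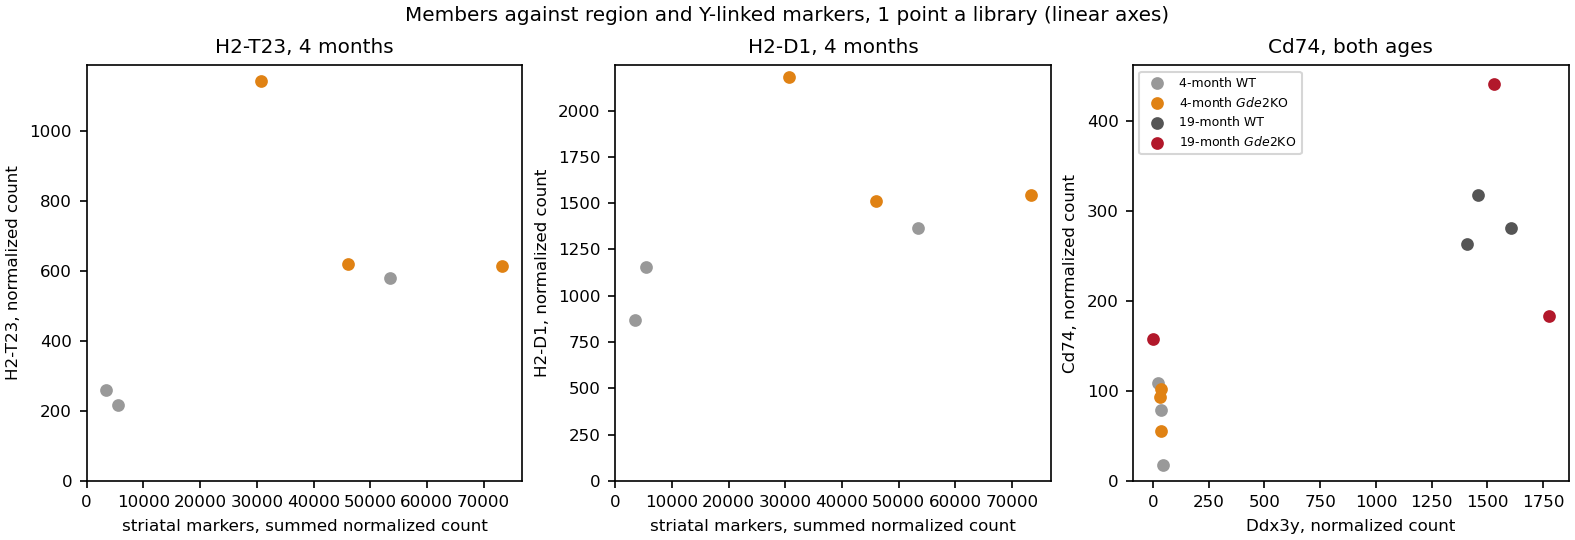
Left and middle, normalized counts of *H2-T23* and *H2-D1* against the summed normalized count of 8 striatal markers in the 6 libraries of 4 months. Right, *Cd74* against the Y-linked gene *Ddx3y* in all 12 libraries. Each point is a library on linear axes. The 2 WT points at the far left are lowest in both class I genes, whereas among the *Gde2*KO points the furthest left is the highest in both. A single 19-month point lies at the left of the *Ddx3y* axis.

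The other members did not separate the genotypes at 4 months. *H2-K1* was higher by 0.37 (interval -0.11 to 0.84), *B2m* by 0.31 (interval -0.33 to 0.94) and *H2-Q4* by 0.16 (interval -0.32 to 0.63), with overlapping libraries. *Tap1* and *Tap2* gave -0.12 and 0.06. Class II was poorly resolved at its low level, with *H2-Aa* at 0.71 (interval -1.09 to 2.51), *Cd74* at 0.60 (interval -0.86 to 2.06) and *H2-Ab1* at -0.06 (interval -0.76 to 0.65). Without WT replicate 1, the library of lowest *H2-Aa* and *Cd74*, these came to -0.21 and -0.19. None of the 25 other class I and 12 other class II genes was called, although 1 and 1 had an unadjusted p under 0.05. *Ciita* was at -0.57, *Nlrc5* at -0.06 and *H2-Eb1* at 0.09. Of 25 interferon-stimulated genes 1 rose in *Gde2*KO, *Xaf1* by 2.25 (adjusted p = 0.0626), from 110.4, 96.4 and 151 in WT to 373, 619 and 757 normalized counts, with no overlap.

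Between genotypes at 19 months no member was called by limma either (0.0969% of the 18583 genes tested were), and 8 of 10 were lower in *Gde2*KO, with a median of -0.19, beside -0.02 for all genes. *B2m* was the 1 member with an unadjusted p under 0.05, as 6.91% of all genes had. Its values were 2357, 2376 and 2740.3 in WT and 1825, 2392 and 1537 in *Gde2*KO libraries. *Gde2*KO library B lay within the WT range and A and C below it, and the log2 difference was -0.40 (interval -0.73 to -0.06, adjusted p = 0.691). In no member were the genotypes free of overlap, in either direction, against 14.2% of all genes. *H2-Q4* differed by -0.49 (interval -1.07 to 0.09), *Cd74* by -0.29 (interval -1.07 to 0.48), *H2-D1* by -0.20 (interval -0.65 to 0.26) and *H2-T23* by -0.19 (interval -0.62 to 0.24). The remaining members lay between -0.22 for *H2-Aa* and 0.11 for *Tap1*.

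At this age the *Gde2*KO libraries had the larger SD of both genotypes in 7 of 10 members. That group holds the shallowest library, A, with 3707928 estimated reads against 6734475 in the shallowest WT library, and counting error adds to its SD. *Gde2*KO library B was the highest of its group in all 10 genes, with 441 normalized counts of *Cd74*, 3025 of *H2-D1* and 1883 of *H2-K1*, each above all WT libraries. The share over all genes was not counted for either pattern. The SD of *H2-K1* was 369.9 in *Gde2*KO and 69.8 in WT, and that of *Cd74* 157 and 27.5. The same library had the most *Clec7a*, *Itgax* and *Lgals3* of its group, and its summed microglial markers were 14491, against 9840.3 and 11319.8 in A and C. None of the other class I, class II or interferon-stimulated genes was called, and 2, 3 and 1 of them had an unadjusted p under 0.05, with *Ciita* at 0.18, *Nlrc5* at -0.43 and *H2-Eb1* at -0.48 (log2). All 8 striatal markers were higher in *Gde2*KO, 7 of them with an unadjusted p under 0.05 and none called (median 0.91), and their sum was 14420.2, 8829.6 and 19676 in *Gde2*KO libraries against 6743 to 9566 in WT. All 9 hippocampal markers were higher as well, with *Fibcd1* called (1.44, adjusted p = 0.0111). The part of region in the members' 19-month values was not tested.

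Whether the genotype difference changed with age was tested as an interaction, and no member passed limma's test at an adjusted p under 0.1 (0.048% of 18731 genes did). The 2 members with an unadjusted p under 0.05, as 12.9% of all genes had, were those that stood out at 4 months. The genotype difference of *H2-T23* shifted from 4 to 19 months by -1.43 on the log2 scale (interval -2.50 to -0.37, adjusted p = 0.368) and that of *H2-D1* by -0.83 (interval -1.53 to -0.13, adjusted p = 0.369). These intervals share the 4-month libraries with the comparison of genotypes above and are no further evidence for it. *B2m* had -0.70 (interval -1.46 to 0.05) and *Cd74* -0.90 (interval -2.66 to 0.87). Without 4-month WT replicate 3 both *H2-T23* (-1.86) and *H2-D1* (-0.98) were called, beside 2029 of all genes, and with library weights 3 members were (*H2-D1*, *B2m* and *H2-T23*), beside 5878 of all genes.

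Some members also varied together from library to library. After the mean of each group was subtracted, Pearson's r over the 12 libraries on the log2 scale was 0.86 between *H2-K1* and *H2-D1*, which share sequence, and 0.77 between *H2-D1* and *B2m*, which do not. Among class II it was 0.86 between *H2-Aa* and *Cd74* and 0.75 between *H2-Ab1* and *Cd74*, and between the classes it ranged from -0.25 for *H2-K1* with *H2-Aa* to 0.76 for *H2-D1* with *H2-Ab1*, with 0.70 for *H2-T23* with *H2-Aa*. On the same centred scale 13555 genes were compared with the mean of *H2-K1*, *H2-D1* and *B2m*. The most alike were *Ifit3b* (r = 0.97), an interferon-induced gene, *Cela1* (0.95), *Plp2* (0.94), the complement gene *C1qb* (0.94) and the microglial adaptor *Tyrobp* (0.93). Those most like the mean of the class II genes were *Tes* (0.96), the collagen gene *Col6a2* (0.96), *Cyp4f13* (0.95), *Sphk1* (0.95) and *Eva1c* (0.94). Without centring, r was 0.47 for *Ifit3b*, 0.13 for *Cela1*, 0.93 for *Plp2*, 0.85 for *C1qb* and 0.69 for *Tyrobp*. For the genes named with class II it was then 0.73 to 0.93. The points share library depth and the regional makeup of the dissections, and the values are a description without a test.

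The transcripts behind these sums were mostly coding. A single coding transcript of *H2-D1* took 95.5 ± 2.09% (SD, n = 3) of the gene's TPM in 4-month WT and 95.5 ± 4.20% in 19-month WT libraries, and that of *H2-T23* took 91.7 ± 2.94% and 83.0 ± 3.82%. For *Cd74* the leading coding transcript took 70.4 ± 13.9% and 64.7 ± 3.43%, with the other main coding form at 25.1 ± 12.5% and 33.0 ± 5.37%. *Tap2* differed, in that a transcript with a retained intron took 44.4 ± 9.18% in 4-month WT and 51.1 ± 3.19% in 19-month WT libraries, about as much as the coding transcript (43.8 ± 2.18% and 42.7 ± 6.69%). For *H2-K1* the leading coding transcript took 52.3 ± 3.31%, 63.2 ± 8.46%, 56.7 ± 2.84% and 55.7 ± 4.23% in the 4 groups, 4-month WT, 4-month *Gde2*KO, 19-month WT and 19-month *Gde2*KO.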

How the data were processed

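Polyadenylated RNA from dissected cortex was sequenced as 12 libraries, 3 for each age and genotype. The authors quantified reads against mouse transcripts with kallisto and normalized them with sleuth. The deposited values are estimated counts, and TPM, divided by sleuth's size factors, a signal that is no longer a whole-number count (47.0 to 62.9% of values were whole reads within 0.01), so count models were not used. Transcripts were summed to genes by symbol, and 1673 of 118489 transcripts without a gene were left out. Genes with at least 5 normalized counts in at least 47% of libraries were tested on log2(value + 0.5) by limma 3.58.1 (R 4.3.3) with an intensity trend, so that log2 fold changes of low genes are understated. Genotypes were compared within each age over 6 libraries, and age and the interaction over all 12. A call needed a Benjamini-Hochberg adjusted p under 0.1 and, except for the interaction, a natural-log change over 0.5. On simulated data 98.5 to 100% of 200 genes changed 4-fold were recovered. Those genes had means over 50 normalized counts and a fixed spread. The rate therefore does not measure how well smaller changes, or changes of low or more variable members, would be found. The p-values rest on the spread between the 3 libraries of each group, pooled over the groups in the fit. In limma this spread is drawn towards a trend over all genes tested. Depth was 3707928 to 59728495 estimated reads. Sequences of transcripts came from GENCODE vM21 and promoters from RefSeq (GRCm38.p6). The members and gene lists were chosen with earlier results of these data known. Members are named throughout, and other genes if they were called in a list (at most 5 a list) or, as a description, if their group-centred correlation was among the 5 highest and their mean was at least 50 normalized counts, along with *Nlrc5*, *Ciita* and *H2-Eb1*. Outside this rule stand checks of the samples (*Gdpd5*, *Ddx3y*, *Snap25*, *Hba-a1*) and marker genes named beside a list's count, such as *Cd3e*, *Clec9a*, *Trbc2* and *Cd4*, which were chosen after their values were seen. Alternatives were another pseudocount, no filter, median-of-ratios scaling, TPM, no trend, library weights, a replicate block, a fit over all groups, omission of shallow libraries and of each library, and, chosen after seeing the data, a *Ddx3y* term and omission of 4-month WT replicates 1 and 2. Library weights were estimated gene by gene because the restricted likelihood fit did not converge.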

Additional observations from a re-analysis of the deposited data

How the results depend on the processing

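Of the recomputed log2 differences of the 10 genes, 631 kept direction and side of the call, 26 gained it, 12 lost it and 31 changed sign. The 19-month genotype comparison called 0 members under each alternative. Library weights called 1 member at 4 months, 7 with age and 3 in the interaction, a *Ddx3y* term left 1 with age, and the cause was not tested. Leaving out each library in turn called 0 to 2 members at 4 months, 3 to 7 with age and 0 to 2 in the interaction, the highest counts being without 4-month WT replicate 3 at 4 months and in the interaction, and without 4-month *Gde2*KO replicate 3 with age. Numbers over all genes ranged from 5 to 2154 at 4 months, 7 to 54 at 19 months, 2156 to 3876 with age and 6 to 5878 in the interaction. Changes of sign were these. With median-of-ratios scaling, -0.035 for *Tap2* (4-month genotype). With library weights, -0.0059 for *Tap2* (4-month genotype), -0.083 for *H2-Aa* (4-month genotype), 0.25 for *H2-Aa* (interaction). With 4-month WT replicates 1 and 2 left out, -0.060 for *H2-Q4* (4-month genotype), 0.29 for *Tap1* (4-month genotype), -0.30 for *H2-Aa* (4-month genotype), -0.42 for *Cd74* (4-month genotype). With gene-level TPM, 0.18 for *Tap2* (19-month genotype), 0.12 for *Tap2* (interaction). With both libraries of low depth left out, 0.035 for *H2-K1* (19-month genotype), 0.072 for *H2-T23* (19-month genotype), 0.051 for *H2-Aa* (19-month genotype). With a term for *Ddx3y*, 0.071 for *H2-K1* (19-month genotype), -0.24 for *H2-Q4* (age). Leaving out each library, the ranges that crossed 0 were -0.21 to 1.21 for *H2-Aa* (4-month genotype), -0.19 to 1.11 for *Cd74* (4-month genotype), -0.32 to 0.032 for *Tap1* (4-month genotype), -0.24 to 0.19 for *H2-Ab1* (4-month genotype), -0.37 to 0.0077 for *H2-T23* (19-month genotype), -0.16 to 0.30 for *H2-Ab1* (19-month genotype), -0.24 to 0.071 for *H2-K1* (19-month genotype), -0.069 to 0.22 for *Tap1* (19-month genotype) and -0.12 to 0.36 for *H2-Ab1* (interaction). The 4-month replicate numbers did not pair the libraries (correlations of the deviations of same-numbered libraries of 0.060, 0.0071 and -0.048), and a replicate block called 0 members and 21 genes, against 24 without it. No paired analysis was possible at 19 months because those columns carry no numbers. With 3 animals a group and 8 to 57 reads of each class II gene in the shallow 19-month libraries, small differences of these genes were not detectable. Age cannot be told apart from library set and depth, and from Y-linked expression only through 1 library.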
